A study of Diplotaxodon limnothrissa and Petrotilapia genalutea and Rhamphochromis longiceps with 60 samples.

Results

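Livers of Petrotilapia genalutea (PG), a rock-dwelling cichlid that feeds on algae, were compared with livers of Rhamphochromis longiceps (RL), an open-water cichlid that feeds on other fish. Both species belong to the radiation of Lake Malawi, in which closely related fish differ widely in diet. The comparison rests on every liver replicate column of the 2 species in the expression table, which are 5 of the 60 samples of the series: PG replicates 1, 2 and 3 and RL replicates 2 and 3. The series also measured RNA and DNA methylation in other cichlids and in muscle. For both groups GEO's labels give wild-caught adult males, and the RNA was the total RNA of homogenised liver after removal of ribosomal RNA. The fish were landed dead by local fishermen, and PG and RL were obtained at different places and on different days, so that species, place and day of sampling cannot be told apart. Transcripts of both species were quantified on the transcripts of a further species, Maylandia zebra (MZ).

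The liver is where a fish turns food into fuel stores and blood proteins. Its main cells, the hepatocytes, store glucose as glycogen, build fatty acids from surplus carbon, burn fatty acids in mitochondria and peroxisomes, and strip nitrogen from amino acids. They also secrete clotting factors, complement and carriers into the blood, and send sterols and bile acids into the bile. An alga eater takes in much carbohydrate and a fish eater mainly protein and fat, and the genes of these pathways are therefore given first.

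Expression is given in TPM, which gives the share of a gene in all transcripts of a library, so that levels are relative to the rest of the same liver. Of 29676 genes, the 14338 with at least 1 TPM in at least 2 of the 5 livers were tested with limma on log2(TPM + 1), in 1 fit with the livers of MZ and of the deep-water feeder Diplotaxodon limnothrissa (DL). Genes with a Benjamini-Hochberg adjusted p under 0.01 are called. There were 809 called genes, 5.64% of those tested, of which 418 were higher in PG (2.92%) and 391 lower in PG (2.73%). Counts of called list members given below are to be read beside these shares. PG and RL livers did not overlap in any of the 809, and they did not overlap in 54.1% of all genes tested either. An exact permutation test of a single gene cannot go below p = 0.1 with 3 livers against 2. PG livers had between 12059 and 12786 genes at 1 TPM or more, and RL livers 12458 and 13213. The 20 most abundant genes held between 41.3% and 47.6% of the TPM in PG livers, and 54.4% and 51.1% in RL livers. Rank correlations over all genes lay between 0.885 and 0.893 among PG livers, were 0.889 between the RL livers and lay between 0.799 and 0.827 across the species.

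The counts depended on single livers. Without RL replicate 2, 78 genes were called, and without RL replicate 3, 323 genes. Of the 809 genes, 185 were not tested in each of these fits, because a gene seen in RL alone then fails the filter on low values. A list median given below for such a fit is over the members still tested. Genes below 1 TPM in every liver of 1 species passed the filter through the other species alone. Their direction was therefore nearly fixed in advance, in genes called higher as in genes called lower. Without PG replicates 1, 2 and 3 in turn, 475, 445 and 648 genes were called. In each of these 5 fits all of the 809 genes that were still tested kept their sign. Since PG and RL livers did not overlap in these genes, leaving out a liver could not reverse it. With MZ replicate 1 left out, 877 genes were called. The median log2 fold change of all genes tested was 0.14. It was -0.00 after quantile normalization, under which 1565 genes were called (4.85% higher and 6.06% lower in PG), and 0.01 after median scaling, under which 1556 were called (5.4% higher and 5.45% lower). Of the 86 called genes described here, 82 and 80 were kept under these rescalings, 83 without MZ replicate 1, and 39 in a fit of PG and RL livers alone. The 10 hepatocyte markers in the table were all tested, 3 were called higher and 0 lower, and their summed level was 35198, 36635 and 33491 TPM in PG livers, against 12400.5 and 23034 TPM in RL livers. Most of the sum in PG livers came from fgb and fgg. Of the 10 markers 6 were above and 4 below 0 (median 0.26), and 2 were lower at an adjusted p under 0.05. After quantile normalization 2 were called higher and 2 lower, and after median scaling 3 higher and 2 lower.

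**Figure D1:**
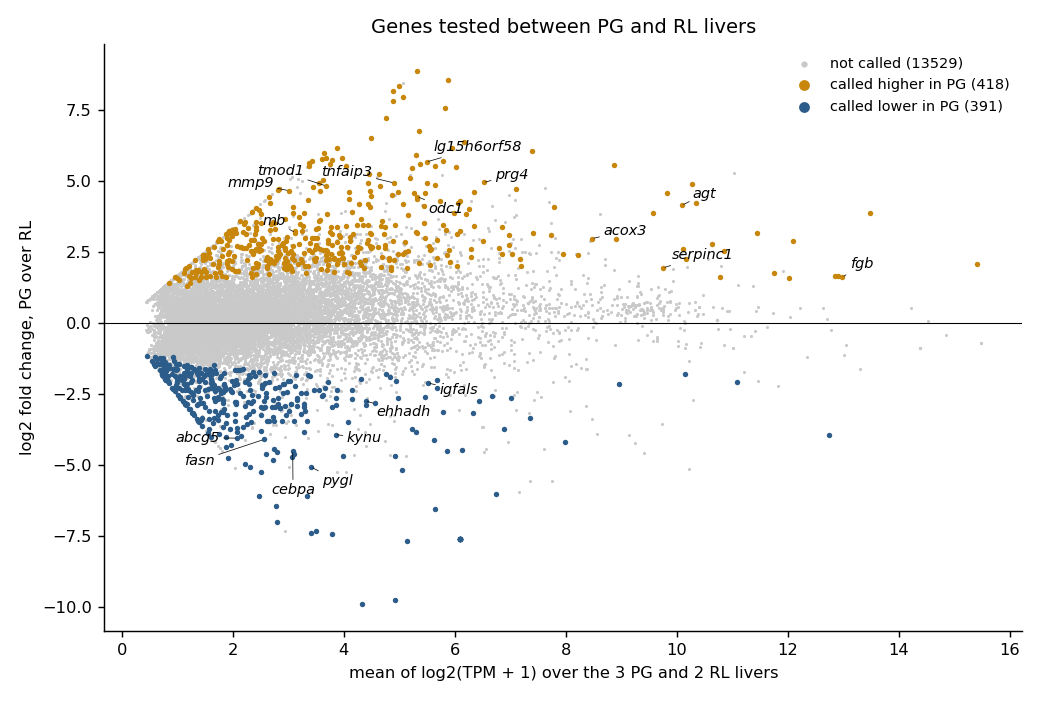
Log2 fold change of PG over RL (vertical axis) against the mean of log2(TPM + 1) over the 5 livers (horizontal axis) for the 14338 genes tested, with the 418 genes called higher in PG in ochre, the 391 called lower in PG in blue and the others in grey. The called genes higher in PG reach to the most abundant transcripts, such as fgb, while most of those lower in PG, such as cebpa and abcg5, lie at lower mean levels.

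In the handling of glycogen and glucose 4 genes were called lower in PG livers, and 2 of them belong to the 19 tested in a list for this pathway, in which 0 were called higher. The fall was largest for pygl, the liver form of glycogen phosphorylase, which frees glucose from glycogen. It had 1.24, 1.48 and 2.17 TPM in PG livers, against 106 and 71.1 TPM in RL livers. The groups did not overlap, and the lowest RL liver was well above the highest PG liver (log2 fold change -5.08, SE 0.40, adjusted p = 1.42e-05). The glycogen-targeting subunits of protein phosphatase 1, which favour glycogen synthesis, fell too. ppp1r3c had 8.34, 19.1 and 11.2 TPM in PG livers, against 198 and 159 TPM in RL livers (log2 fold change -3.76, SE 0.47, adjusted p = 6.08e-04). ppp1r3b, which was chosen after its values were seen, had 1.12, 0.578 and 2.26 TPM in PG livers, against 11.6 and 17.9 TPM in RL livers (log2 fold change -2.80, SE 0.56, adjusted p = 0.00754). slc37a4, which carries glucose 6-phosphate into the endoplasmic reticulum for release as glucose, had 5.37, 9.76 and 10.1 TPM in PG livers, against 60.7 and 35.99 TPM in RL livers (log2 fold change -2.39, SE 0.46, adjusted p = 0.006298). The list members called were pygl and slc37a4, and the 19 genes had a median log2 fold change of -0.36 beside 0.14 for all genes. Of the 19 genes 9 were above and 10 below 0, and 2 were higher and 5 lower at an adjusted p under 0.05. The last enzyme of glucose release, g6pc, was not called and had 784, 1149 and 1075 TPM in PG livers, against 199.7 and 511 TPM in RL livers (log2 fold change 1.63, SE 0.52, adjusted p = 0.0492). With PG replicates 1, 2 and 3 and RL replicates 2 and 3 left out in turn, 2, 2, 3, 1 and 2 of these 4 calls were kept, pygl in each of them, and the lost calls had adjusted p up to 0.09302.

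Of 16 genes tested in the list for fatty acid synthesis, 3 were called lower in PG and 0 higher. fasn, fatty acid synthase, had 0.742, 1.86 and 0.346 TPM in PG livers, against 119 and 7.87 TPM in RL livers (log2 fold change -4.11, SE 0.86, adjusted p = 0.00898). Both RL livers were above all PG livers, but they differed widely from each other. acaca, which makes the malonyl-CoA that fasn uses, had 1.29, 2.28 and 2.37 TPM in PG livers, against 22.9 and 12.4 TPM in RL livers (log2 fold change -2.61, SE 0.55, adjusted p = 0.00939). fads6, of the fatty acid desaturase family, had 1.08, 0.861 and 0.428 TPM in PG livers, against 26.1 and 15.5 TPM in RL livers (log2 fold change -3.58, SE 0.49, adjusted p = 0.00101). In all 3 genes the PG livers stayed below 3 TPM, and 12 of the 16 genes had a log2 fold change below 0 (median -0.68). This median depended on the RL liver kept, at -0.44 without RL replicate 2 and -1.53 without RL replicate 3. dgat2, which completes triglycerides, just missed the threshold with 11.1, 2.99 and 9.51 TPM in PG livers, against 180.1 and 30.5 TPM in RL livers (log2 fold change -3.25, SE 0.70, adjusted p = 0.0103).

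In the breakdown of fatty acids 1 peroxisomal enzyme was called higher and 1 lower. acox3, an acyl-CoA oxidase that opens the peroxisomal chain, was higher in PG with 1086, 826 and 590.1 TPM in PG livers, against 100.5 and 106 TPM in RL livers (log2 fold change 2.96, SE 0.38, adjusted p = 7.25e-04). ehhadh, which carries out the following steps in the same organelle, was lower in PG with 8.75, 5.53 and 13.8 TPM in PG livers, against 66.7 and 63.9 TPM in RL livers (log2 fold change -2.76, SE 0.40, adjusted p = 0.00149). They were the only genes called of 31 tested in the list for fatty acid oxidation, whose median was -0.31. This share is close to the 5.64% called among all genes tested. After quantile normalization 1 gene of this list was called higher and 4 lower.

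Of 9 genes tested in the list for bile acids and steroids, 3 were called lower in PG and 0 higher. abcg5 and abcg8 encode the 2 partners of the transporter that moves sterols into bile. abcg5 had 0.502, 0.101 and 0.556 TPM in PG livers, against 26.3 and 18.3 TPM in RL livers (log2 fold change -4.06, SE 0.41, adjusted p = 1.07e-04). abcg8 had 0.546, 0.3598 and 0.415 TPM in PG livers, against 9.86 and 13.8 TPM in RL livers (log2 fold change -3.14, SE 0.41, adjusted p = 7.30e-04). For both genes no PG liver reached 1 TPM and both RL livers were near or above 10 TPM. They passed the filter through RL livers alone. amacr, a racemase for branched fatty acids and bile acid precursors, had 0.704, 0.447 and 1.17 TPM in PG livers, against 8.58 and 8.69 TPM in RL livers (log2 fold change -2.46, SE 0.34, adjusted p = 0.00103). The median of the list was -0.55. It was 0.17 without RL replicate 3, but over fewer genes, since abcg5, abcg8 and fgf19 were not tested in that fit. faxdc2, of the fatty acid hydroxylase family and chosen after its values were seen, had 61.8, 37.8 and 49.2 TPM in PG livers, against 219.9 and 394 TPM in RL livers (log2 fold change -2.57, SE 0.47, adjusted p = 0.004698). Of the 9 calls on lipid genes, 7, 6, 6, 0 and 4 were kept as PG replicates 1, 2 and 3 and RL replicates 2 and 3 were left out, with adjusted p up to 0.118 for those lost. abcg5 and abcg8 were called without each PG liver and not tested without an RL liver. The call of fasn was also lost without MZ replicate 1 and after either rescaling, with adjusted p between 0.0119 and 0.0144.

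Of 43 genes tested in the list for amino acid breakdown, 6 were called lower in PG and 0 higher, and at an adjusted p under 0.05 13 were lower and 3 higher. The median log2 fold change was -0.69, and 29 of the 43 were below 0. The called genes were not among the abundant ones, and the level summed over the list was 6164, 8009 and 5881 TPM in PG livers, against 3926 and 5866 TPM in RL livers, the lowest PG liver being close to the higher RL liver. cth, which makes cysteine from cystathionine and was chosen after its values were seen, is one of the abundant members and had 748, 911 and 713 TPM in PG livers, against 259 and 179.6 TPM in RL livers (log2 fold change 1.86, SE 0.41, adjusted p = 0.0116). Kynureninase, kynu, acts on the tryptophan pathway and had 5.57, 1.83 and 5.12 TPM in PG livers, against 66.03 and 81.7 TPM in RL livers (log2 fold change -3.94, SE 0.43, adjusted p = 2.23e-04). kmo, which acts just before it, had 5.99, 6.27 and 15.4 TPM in PG livers, against 60.1 and 80.04 TPM in RL livers (log2 fold change -2.90, SE 0.49, adjusted p = 0.00318). Both were lower in all PG livers than in both RL livers. tdo2, the first and most abundant enzyme of this pathway, was not called and had 696, 810 and 1146 TPM in PG livers, against 334 and 829 TPM in RL livers (log2 fold change 0.72, SE 0.48, adjusted p = 0.319), so that the groups overlapped. Cytosolic serine hydroxymethyltransferase, shmt1, which moves one-carbon units from serine to folate, had 2.12, 2.06 and 2.97 TPM in PG livers, against 67.7 and 33.7 TPM in RL livers (log2 fold change -3.86, SE 0.43, adjusted p = 2.47e-04). amt, of the glycine cleavage system, had 2.197, 1.18 and 3.44 TPM in PG livers, against 12.3 and 14.3 TPM in RL livers (log2 fold change -2.18, SE 0.41, adjusted p = 0.00513). PG livers were at or below 3.44 TPM for both genes. mccc1, a subunit of the carboxylase for leucine breakdown, had 1.83, 1.16 and 2.38 TPM in PG livers, against 26.5 and 11.5 TPM in RL livers (log2 fold change -2.76, SE 0.46, adjusted p = 0.00304). pccb, a subunit of propionyl-CoA carboxylase, which takes up the ends of valine, isoleucine and odd-chain fats, had 1.4, 0.847 and 1.37 TPM in PG livers, against 9.28 and 4.35 TPM in RL livers (log2 fold change -1.76, SE 0.34, adjusted p = 0.00575). The groups did not overlap for any of the 6 called genes, as holds for all genes called in liver.

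A pair of further enzymes close to amino acid metabolism stood outside the list. oplah, which opens 5-oxoproline to glutamate in the glutathione cycle, had 0.0911, 0.0566 and 0 TPM in PG livers, against 14.9 and 11.4 TPM in RL livers (log2 fold change -3.75, SE 0.41, adjusted p = 2.20e-04). agmat, agmatinase, had 0.174, 0.223 and 0.794 TPM in PG livers, against 23.1 and 12.98 TPM in RL livers (log2 fold change -3.74, SE 0.41, adjusted p = 2.21e-04). PG livers stayed below 1 TPM for both, which passed the filter through RL livers alone. Among these 8 genes, 5, 4, 7, 2 and 4 calls were kept without PG replicates 1, 2 and 3 and RL replicates 2 and 3, kynu and shmt1 in every fit, and lost calls had adjusted p up to 0.102. oplah and agmat were not tested without an RL liver. After quantile normalization 2 genes of the list were called higher and 14 lower.

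Among liver transcription factors 1 of 20 tested was called, a share close to the 5.64% of all genes tested. cebpa, a leucine zipper factor that drives genes of energy storage in hepatocytes, had 0.9104, 1.97 and 1.5 TPM in PG livers, against 55.4 and 53.1 TPM in RL livers. The RL livers were close to each other, and every PG liver was below 2 TPM (log2 fold change -4.51, SE 0.47, adjusted p = 1.41e-04). The median of the list was -0.23, or 0.13 without RL replicate 3, and 14 of the 20 were below 0. hnf4a, a receptor that keeps hepatocyte identity, did not pass at 5.63, 9.84 and 10.1 TPM in PG livers, against 17.3 and 36.04 TPM in RL livers (log2 fold change -1.49, SE 0.40, adjusted p = 0.0264). The study, which used a Wald test, reports hnf4a as downregulated in PG compared with DL and RL, the same direction. klf9 (log2 fold change 2.83, SE 0.65, adjusted p = 0.0141) was not called, nor was mnt (log2 fold change 1.58, SE 0.51, adjusted p = 0.0505). mitfb, of the family of pigment cell regulators, was called lower with 0.401, 0.338 and 0.293 TPM in PG livers, against 3.698 and 3.44 TPM in RL livers (log2 fold change -1.77, SE 0.37, adjusted p = 0.00911). Of 11 clock genes only rorb, an orphan receptor of the clock's secondary loop, was called, with 0.302, 0.132 and 0.2298 TPM in PG livers, against 2.16 and 3.51 TPM in RL livers (log2 fold change -1.63, SE 0.31, adjusted p = 0.00545). Of 14 immediate early genes fosl2 was called higher and fosb lower, both of them partners in AP-1. fosl2 had 57.4, 65.3 and 81.1 TPM in PG livers, against 5.85 and 20.99 TPM in RL livers (log2 fold change 2.48, SE 0.52, adjusted p = 0.00908). fosb had 0.8096, 1.32 and 2.701 TPM in PG livers, against 11.8 and 15.7 TPM in RL livers (log2 fold change -2.55, SE 0.44, adjusted p = 0.00374).

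Of 8 genes tested in the list for the insulin-like growth factor axis, 1 was called lower in PG and 0 higher, and 4 were above and 4 below 0 (median -0.20). igfals, which holds the growth factor in a stable complex in blood, had 16.9, 22.1 and 39.01 TPM in PG livers, against 150 and 80.8 TPM in RL livers (log2 fold change -2.12, SE 0.44, adjusted p = 0.008802). igf1 itself was not called and had 30.2, 25.6 and 49.8 TPM in PG livers, against 128 and 112 TPM in RL livers (log2 fold change -1.80, SE 0.46, adjusted p = 0.0222). srcin1, an adaptor that restrains Src kinase, had 0.597, 0.408 and 2.103 TPM in PG livers, against 22.1 and 19.4 TPM in RL livers (log2 fold change -3.51, SE 0.50, adjusted p = 0.00126). Of the 7 calls of this and the preceding paragraph, 2, 2, 4, 1 and 3 were kept without PG replicates 1, 2 and 3 and RL replicates 2 and 3, cebpa each time, and the lost ones had adjusted p up to 0.136. mitfb and rorb were not tested without an RL liver, and leaving out MZ replicate 1 ended the calls of igfals and mitfb (0.0106 to 0.0113 for their adjusted p).

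**Figure D2:**
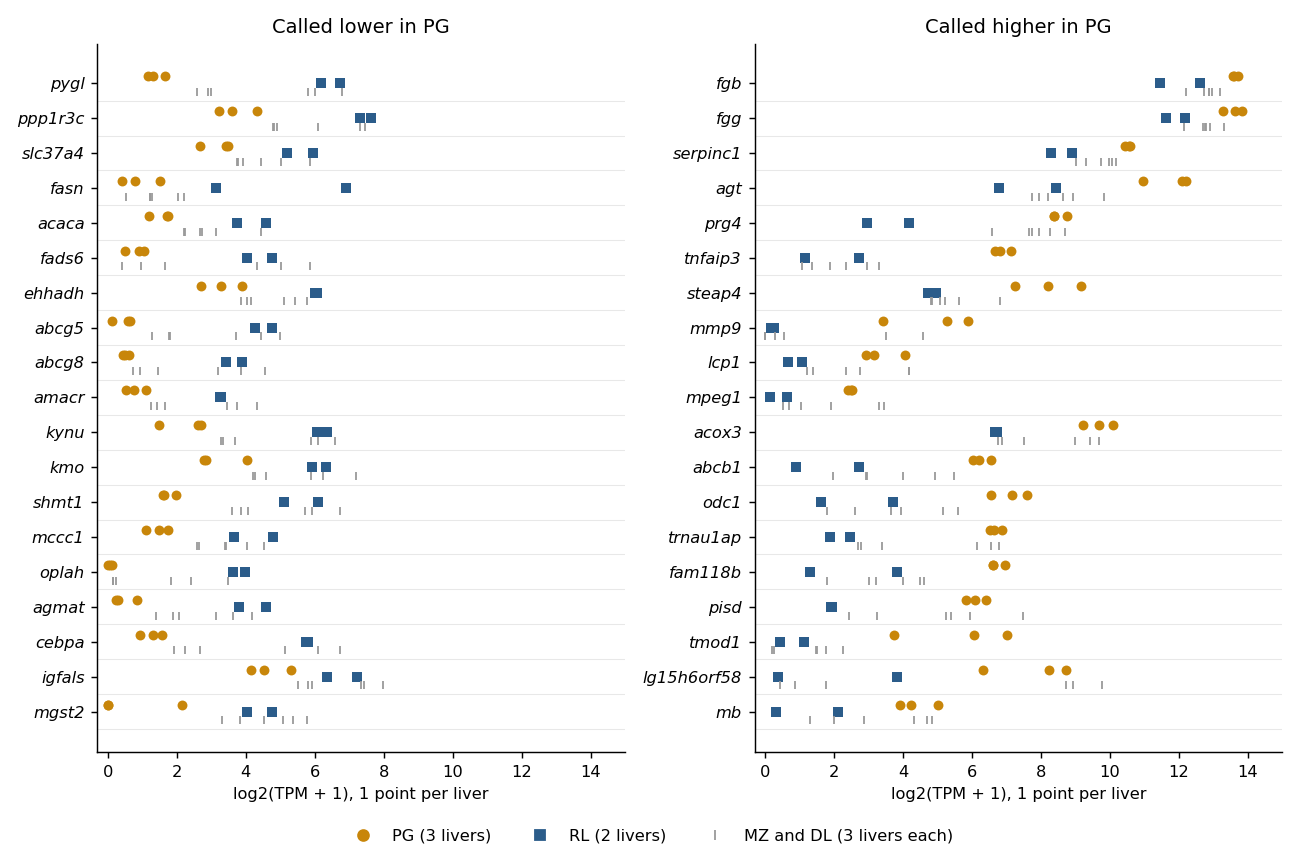
Expression of genes described in the text in single livers, as log2(TPM + 1) on the horizontal axis, with PG livers in ochre circles, RL livers in blue squares and MZ and DL livers in grey bars. In all 38 genes shown the 3 PG livers lie on one side of the 2 RL livers, as in every called gene. The RL livers differ most from each other for fasn and lg15h6orf58.

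Of 18 genes tested in the list for complement and coagulation, 3 were called higher in PG and 0 lower. Fibrinogen is the clot-forming protein of plasma, and its beta and gamma chains were among the most abundant transcripts. fgb had 13504, 12374 and 12065 TPM in PG livers, against 2792 and 6226 TPM in RL livers (log2 fold change 1.60, SE 0.32, adjusted p = 0.00766). fgg had 12567, 14614 and 9829 TPM in PG livers, against 3179.7 and 4663 TPM in RL livers (log2 fold change 1.66, SE 0.30, adjusted p = 0.00413). serpinc1, antithrombin, which holds clotting in check, had 1509.7, 1389 and 1532 TPM in PG livers, against 315 and 475 TPM in RL livers (log2 fold change 1.93, SE 0.38, adjusted p = 0.00716). Of the 18 genes 16 were above 0, and the median was 0.55. The median was 0.13 after quantile normalization, with 2 genes called higher. Outside the lists, agt and prg4 were named for the size of their change. agt, angiotensinogen, from which the pressor peptide angiotensin is cut, had 4747, 4357 and 1976 TPM in PG livers, against 109 and 347 TPM in RL livers (log2 fold change 4.14, SE 0.66, adjusted p = 0.00244). prg4, lubricin, a mucin-like secreted protein, had 329, 335 and 428 TPM in PG livers, against 6.804 and 16.9 TPM in RL livers (log2 fold change 4.94, SE 0.51, adjusted p = 1.43e-04). PG livers did not overlap with RL livers in any of these 5 genes, as in all called genes. The markers fgb, fgg and serpinc1 are also on the list of hepatocyte markers, in which apob, the main protein of lipoproteins, was not called and had 25.3, 21.5 and 34.9 TPM in PG livers, against 75.8 and 83.5 TPM in RL livers (log2 fold change -1.54, SE 0.40, adjusted p = 0.0222).

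A further 3 genes called higher in PG are known from inflammation in mammals. tnfaip3, the ubiquitin-editing protein A20 that damps NF-kB signalling, had 112, 100.5 and 139 TPM in PG livers, against 1.25 and 5.62 TPM in RL livers. All PG livers were far above both RL livers (log2 fold change 4.92, SE 0.49, adjusted p = 9.72e-05). steap4, a metalloreductase for iron and copper that inflammatory signals induce in mammals, had 571, 152 and 291 TPM in PG livers, against 30.3 and 25.2 TPM in RL livers (log2 fold change 3.36, SE 0.57, adjusted p = 0.00332). It was the only gene called of 17 in the list for iron and heme, close to the share of 5.64% among all genes tested. mmp9, a gelatinase that neutrophils and macrophages release, had 9.805, 58.5 and 37.7 TPM in PG livers, against 0.126 and 0.201 TPM in RL livers (log2 fold change 4.65, SE 0.96, adjusted p = 0.00879). For both genes the PG livers varied severalfold among themselves. mmp9 was below 1 TPM in both RL livers and passed the filter through PG livers alone.

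Of 8 leukocyte markers tested 2 were called higher in PG and 0 lower. lcp1, the leukocyte plastin, had 6.604, 15.7 and 7.93 TPM in PG livers, against 1.12 and 0.579 TPM in RL livers (log2 fold change 2.51, SE 0.53, adjusted p = 0.00953). mpeg1, a pore-forming protein of macrophages, had 4.27, 4.8 and 4.59 TPM in PG livers, against 0.115 and 0.549 TPM in RL livers (log2 fold change 2.08, SE 0.43, adjusted p = 0.00855). All 8 had a log2 fold change above 0, and 5 were higher at an adjusted p under 0.05 (median 1.78). Of these markers mpeg1, spi1, csf1r and cd3e were below 1 TPM in both RL livers and passed the filter through PG livers alone. A log2 fold change above 0 was therefore nearly fixed for them in advance. The level summed over the 12 markers of the list, of which 4 did not pass the filter, was 283, 230.2 and 200.1 TPM in PG livers, against 47.8 and 53.4 TPM in RL livers. The groups did not overlap in this sum, but most of it in every liver came from cd74, which was not called. cd3e, of the T cell receptor complex, had 1.67, 1.28 and 1.58 TPM in PG livers, against 0.0958 and 0 TPM in RL livers. ptprc, which marks leukocytes in general, had 7.44, 8.94 and 6.61 TPM in PG livers, against 1.77 and 2.59 TPM in RL livers. Both were low in RL, and cd3e was listed at 0 in RL replicate 3. cd74, the invariant chain of class II antigen presentation, had 249.5, 186 and 169 TPM in PG livers, against 42.5 and 47.4 TPM in RL livers (log2 fold change 2.12, SE 0.53, adjusted p = 0.0191). spi1 and csf1r, which mark macrophages, missed the threshold (adjusted p = 0.0121 and 0.02002). Fewer cells of a type and less RNA per cell cannot be told apart in these bulk samples, and the part of leukocytes in the higher levels of tnfaip3, steap4 and mmp9 was not tested.

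Of the markers of other cells, those of fibroblasts were low. The summed level of the 11 in the table was 10.6, 4.52 and 5.74 TPM in PG livers, against 25.1 and 17.3 TPM in RL livers, and postn, a matrix protein, was the 1 gene called, with 0.595, 0.0471 and 0.0441 TPM in PG livers, against 6.46 and 2.84 TPM in RL livers (log2 fold change -2.15, SE 0.35, adjusted p = 0.002705). Exocrine pancreas, which is spread through the abdomen of many fish, was seen in 3 markers with a sum of 38.8, 155 and 60.8 TPM in PG livers, against 652 and 239 TPM in RL livers, with 0 genes called. Markers of bile duct summed to 64.98, 72.5 and 31.4 TPM in PG livers, against 52.03 and 83.8 TPM in RL livers, with 0 of 5 called. Endothelial markers summed to 63.2, 63.1 and 41.9 TPM in PG livers, against 24.97 and 44.2 TPM in RL livers, with 0 of 8 called. Adipocyte markers summed to 477, 426 and 319 TPM in PG livers, against 128 and 332 TPM in RL livers, with 0 of 4 called, and 0 of 3 intestinal markers passed the filter. Of erythrocyte and endocrine pancreas markers 2 each were tested, with 0 called. Several of these lists were found only in small part. The table held 3 genes for 27 listed symbols of exocrine pancreas, 3 for 20 of erythrocytes, 3 for 15 of intestine and 4 for 23 of skeletal muscle. These counts therefore do not speak for the cell type as a whole. Of the 11 calls from fgb to postn, 6, 5, 6, 2 and 4 were kept without PG replicates 1, 2 and 3 and RL replicates 2 and 3. tnfaip3 and prg4 were kept each time, postn was not tested without an RL liver, and lost calls had adjusted p up to 0.115.

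Detoxification genes moved in both directions, with 3 of 23 tested called higher and 1 lower in PG (median -0.17, or 0.18 without RL replicate 3). abcb1, P-glycoprotein, which pumps foreign compounds out of cells, had 93.5, 72.8 and 64.03 TPM in PG livers, against 0.8498 and 5.68 TPM in RL livers (log2 fold change 4.45, SE 0.59, adjusted p = 8.01e-04). sult6b1, a sulfotransferase, had 6.89, 4.66 and 9.71 TPM in PG livers, against 0.905 and 0.237 TPM in RL livers (log2 fold change 2.35, SE 0.37, adjusted p = 0.00232). It was below 1 TPM in both RL livers and passed the filter through PG livers alone. gstk1, a glutathione transferase, had 24.6, 24.6 and 34.05 TPM in PG livers, against 3.31 and 9.797 TPM in RL livers (log2 fold change 2.06, SE 0.42, adjusted p = 0.00808). mgst2, a membrane-bound glutathione transferase, was lower with 0, 3.498 and 0 TPM in PG livers, against 26.1 and 15.3 TPM in RL livers (log2 fold change -3.67, SE 0.63, adjusted p = 0.00347). It was listed at 0 in PG replicates 1 and 3. gpx4, which protects membranes from lipid peroxides, was not called, with 181, 194 and 162 TPM in PG livers, against 329 and 809.9 TPM in RL livers (log2 fold change -1.53, SE 0.42, adjusted p = 0.0273). Without PG replicates 1, 2 and 3 and RL replicates 2 and 3, 2, 3, 3, 0 and 2 of the 4 calls were kept, and adjusted p of the lost ones reached 0.128.

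Of the other genes with a symbol among the largest rises, 7 belonged to no list. lg15h6orf58 had 78.3, 299 and 426 TPM in PG livers, against 13.1 and 0.299 TPM in RL livers (log2 fold change 5.66, SE 0.93, adjusted p = 0.00278). RL replicate 2 was far above RL replicate 3, and both were below every PG liver. odc1, ornithine decarboxylase, the first enzyme of polyamine synthesis, had 141, 193 and 93.3 TPM in PG livers, against 2.09 and 11.97 TPM in RL livers (log2 fold change 4.44, SE 0.77, adjusted p = 0.00369). trnau1ap, which binds the transfer RNA for selenocysteine, had 97.9, 115 and 90.6 TPM in PG livers, against 2.703 and 4.49 TPM in RL livers (log2 fold change 4.50, SE 0.38, adjusted p = 3.04e-05). Its PG livers were close to each other and all above both RL livers. tmod1, tropomodulin, which caps actin filaments, had 128, 66.2 and 12.3 TPM in PG livers, against 0.355 and 1.19 TPM in RL livers (log2 fold change 4.82, SE 0.77, adjusted p = 0.00235), with a wide spread among PG livers. pisd, which makes phosphatidylethanolamine in mitochondria, had 55.8, 67.4 and 83.7 TPM in PG livers, against 2.82 and 2.76 TPM in RL livers (log2 fold change 4.19, SE 0.75, adjusted p = 0.004296). tmem179 had 17.4, 17.3 and 24.4 TPM in PG livers, against 0 and 0.202 TPM in RL livers (log2 fold change 4.22, SE 0.56, adjusted p = 8.01e-04). It was listed at 0 in RL replicate 2, and it passed the filter through PG livers alone. fam118b had 97.5, 95.9 and 124 TPM in PG livers, against 1.47 and 13.1 TPM in RL livers (log2 fold change 4.17, SE 0.81, adjusted p = 0.006503). mb, myoglobin, which is on the list of skeletal muscle markers, had 17.98, 31.3 and 14.2 TPM in PG livers, against 3.38 and 0.238 TPM in RL livers (log2 fold change 3.17, SE 0.59, adjusted p = 0.00486). The 4 muscle markers in the table summed to 21.1, 37.7 and 17.3 TPM in PG livers, against 17.1 and 2.05 TPM in RL livers, with RL replicate 2 just below the lowest PG liver, and the part of muscle tissue in the level of mb was not tested. Of these 8 calls 5, 4, 6, 3 and 4 were kept without PG replicates 1, 2 and 3 and RL replicates 2 and 3, trnau1ap each time, and the lost ones had adjusted p up to 0.102.

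Only 256 of the 809 called genes carry a symbol in the table, 139 of them higher and 117 lower in PG, and 6453 of the 14338 genes tested do. The largest differences on the log2 scale were in genes without one. LOC112436627 had 394, 518 and 502 TPM in PG livers and was listed at 0 in both RL livers. LOC112430399, with 129, 446 and 558 TPM in PG livers, and LOC101474941, with 246, 358 and 256 TPM in PG livers, were likewise listed at 0 in both RL livers. LOC105940518 had 1042, 693 and 345 TPM in PG livers, against 0 and 1.799 TPM in RL livers (log2 fold change 8.56, SE 0.95, adjusted p = 2.47e-04). In the other direction LOC101485633 had 0.154, 0.572 and 0.172 TPM in PG livers, against 2815 and 541 TPM in RL livers (log2 fold change -9.91, SE 0.60, adjusted p = 4.51e-06). LOC111500966 had 1.31, 2.595 and 0.00174 TPM in PG livers, against 1412 and 2148 TPM in RL livers (log2 fold change -9.75, SE 0.93, adjusted p = 7.52e-05). Both genes were near 0 in PG livers and among the abundant transcripts of RL livers. LOC106675256 had 2.47, 3.37 and 3.96 TPM in PG livers, against 890.2 and 834 TPM in RL livers (log2 fold change -7.68, SE 0.99, adjusted p = 7.30e-04). LOC112431960 had 8.78, 5.72 and 7.52 TPM in PG livers, against 1965 and 1352 TPM in RL livers (log2 fold change -7.63, SE 0.56, adjusted p = 9.90e-06). It shares its values in all livers with the other members of a set of 11 called genes, so that these 11 cannot be told apart. In all, 9 genes were listed at 0 in both RL livers with 10 TPM or more in each PG liver, and 11 the other way round.

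By absolute level the largest differences were also in genes without a symbol. LOC111500986 had 101533, 49688 and 91086 TPM in PG livers, against 21758 and 15820.5 TPM in RL livers (log2 fold change 2.06, SE 0.37, adjusted p = 0.004103). LOC111501168 had 55012, 26164 and 26328 TPM in PG livers, against 3408 and 1563 TPM in RL livers (log2 fold change 3.86, SE 0.74, adjusted p = 0.00575). LOC101473393 had 8787, 6936 and 15045 TPM in PG livers, against 1452 and 1203 TPM in RL livers (log2 fold change 2.88, SE 0.48, adjusted p = 0.00311). Together with fgb and fgg these were the 5 largest rises in TPM among called genes. The largest fall was that of LOC111501435, with 669, 3384 and 5184 TPM in PG livers, against 38723 and 32361 TPM in RL livers (log2 fold change -3.96, SE 0.65, adjusted p = 0.002905). LOC111501235 had 1290.5, 1174 and 1169.7 TPM in PG livers, against 5295 and 5009.7 TPM in RL livers (log2 fold change -2.09, SE 0.37, adjusted p = 0.00415), and LOC112435012 had 548, 694 and 861 TPM in PG livers, against 2439 and 2372 TPM in RL livers (log2 fold change -1.80, SE 0.34, adjusted p = 0.00574). Since TPM shares a fixed total, the level of every other gene in a liver moves with such transcripts. Of the 14 calls in genes without a symbol, 10, 11, 12, 6 and 7 were kept without PG replicates 1, 2 and 3 and RL replicates 2 and 3, and the lost ones had adjusted p up to 0.0656. LOC101485633 was not tested without an RL liver. A pair of genes that the study singles out did not pass between PG and RL here. The q values that the study prints for them are from Wald tests of MZ against DL and RL, so they are not the same comparison. LOC101465189 had 6.61, 32.01 and 9.62 TPM in PG livers, against 0 and 0.584 TPM in RL livers (log2 fold change 3.46, SE 0.76, adjusted p = 0.0111). The study also reports higher expression of LOC101465189 in livers of MZ and PG than in those of RL and DL, the direction seen here. LOC101465185 had 3091, 2433 and 3953 TPM in PG livers, against 669.9 and 883 TPM in RL livers (log2 fold change 2.01, SE 0.71, adjusted p = 0.0686).

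The remaining lists held 0 called genes in either direction by limma at an adjusted p under 0.01. At an adjusted p under 0.05, 18.4% of all genes were called, 10.9% higher and 7.5% lower in PG, and at an unadjusted p under 0.05 20.7% were higher and 13.9% lower. Of 19 genes for cholesterol synthesis 0 were called at an adjusted p under 0.05, and 4 were higher and 3 lower at an unadjusted p under 0.05 (median 0.01). Of 16 for lipoproteins 1 was lower at the adjusted and 1 higher and 2 lower at the unadjusted level (median -0.06). Of 39 genes of the respiratory chain 1 was higher at the adjusted and 1 higher and 3 lower at the unadjusted level (median -0.11). These lists showed no common direction. All 67 cytosolic ribosomal proteins had a log2 fold change above 0, with a median of 0.50, or 0.24 after quantile normalization, and 0 were called at the adjusted and 15 higher at the unadjusted level. Of 27 genes for unfolded protein and heat shock 4 were higher and 2 lower at the adjusted and 8 higher and 2 lower at the unadjusted level (median 0.57). Those higher at the adjusted level include hsp90ab1, an abundant chaperone, with 866, 649.6 and 577 TPM in PG livers, against 288 and 321 TPM in RL livers (log2 fold change 1.17, SE 0.35, adjusted p = 0.0397). Of 22 glucocorticoid-responsive genes 3 were higher and 1 lower at the adjusted and 5 higher and 1 lower at the unadjusted level, and their median of 0.39 became -0.06 after quantile normalization and -0.03 without RL replicate 2. Of 13 genes for antigen presentation and interferon 3 were higher at the adjusted and 4 higher and 1 lower at the unadjusted level (median -0.14). Without RL replicate 3 the medians for heat shock and lipoproteins were -0.09 and 0.30, and without RL replicate 2 those for the respiratory chain and antigen presentation were 0.08 and 0.25, each of the opposite sign. Cell division genes were nearly absent, with 4 of 38 passing the filter, and 2 of 3 genes for egg yolk formation passed, with 1 lower and 0 higher at the unadjusted level.

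**Figure D3:**
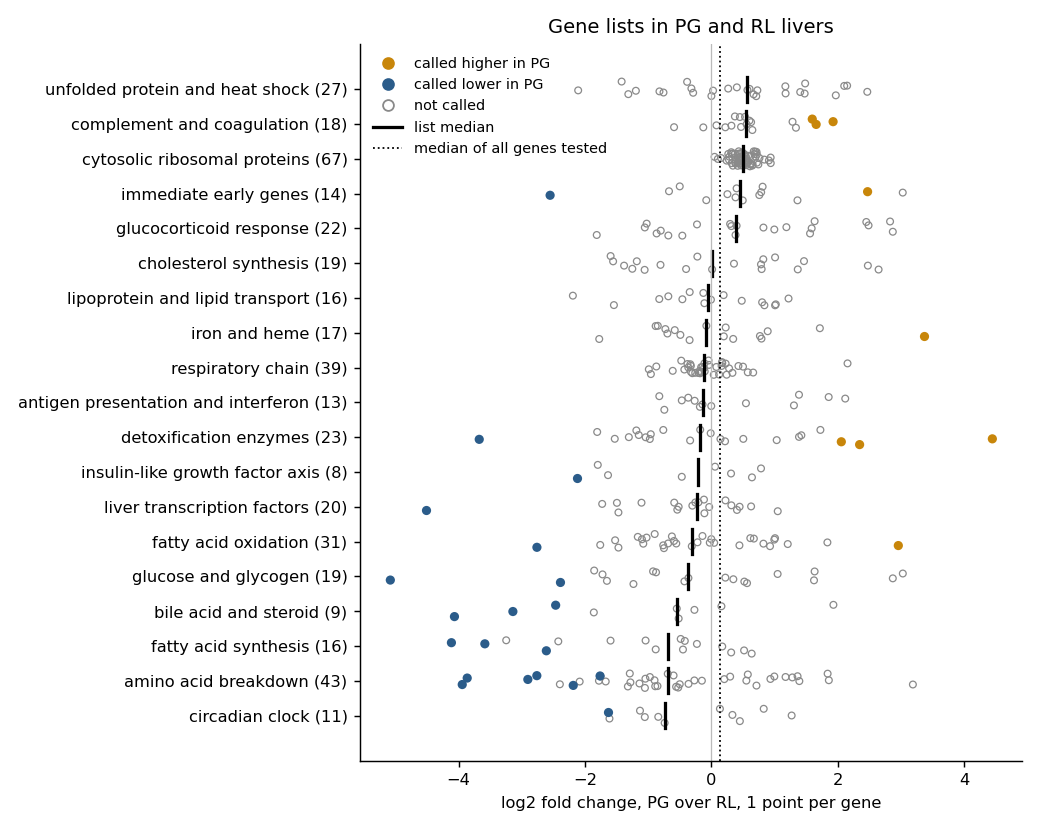
Log2 fold change of PG over RL for the genes of the 19 pathway lists of the report with at least 8 genes tested, 1 point per gene, with the number tested in brackets. Filled points are called genes (ochre higher, blue lower in PG), black bars are list medians and the dotted line is the median of all genes tested, 0.14. Called genes lie to the left for fatty acid synthesis, amino acid breakdown and bile acids, and to the right for complement and coagulation.

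The MZ and DL livers show where 2 further species lie on the same genes. MZ is a rock-dwelling mbuna like PG, and DL lives in open deep water. For each gene the midpoint between the PG and RL means was taken on the log2 scale. Among the 391 genes called lower in PG, the MZ mean lay on the PG side for 341 (87.2%), beside 77.6% of all tested genes with a log2 fold change below 0. The DL mean lay on the PG side for 123 of them (31.5%), beside 22.5%. pygl had 5.05, 6.94 and 6.57 TPM in MZ livers and 63.4, 54.8 and 111 TPM in DL livers, and cebpa 2.79, 5.46 and 3.68 TPM in MZ livers and 34.1, 67.98 and 106 TPM in DL livers. fasn was an exception, with 1.44, 1.34 and 3.08 TPM in MZ livers and 0.442, 3.6 and 1.34 TPM in DL livers, near PG in both. Among the 418 genes called higher in PG, the MZ mean lay on the PG side for 139 (33.3%), beside 31.0% of all tested genes above 0, and the DL mean for 73 (17.5%), beside 46.3%. tnfaip3 had 4.08, 6.78 and 8.87 TPM in MZ livers and 2.67, 1.11 and 1.57 TPM in DL livers, so that PG alone was high. trnau1ap was high in PG and MZ, with 69.6, 92.6 and 109 TPM in MZ livers and 5.42, 5.903 and 9.53 TPM in DL livers. prg4 was low in RL alone, with 94.1, 211 and 244 TPM in MZ livers and 303, 199 and 409.9 TPM in DL livers. MZ replicate 1 had 10111 genes at 1 TPM or more, fewer than any other liver. Without it the MZ mean lay on the PG side for 42.6% of the genes called higher, beside 47.1% of all tested, and for 85.7% of those called lower, beside 62.9%. These shares are a description, since MZ and DL livers also entered the estimate of spread.

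**Figure D4:**
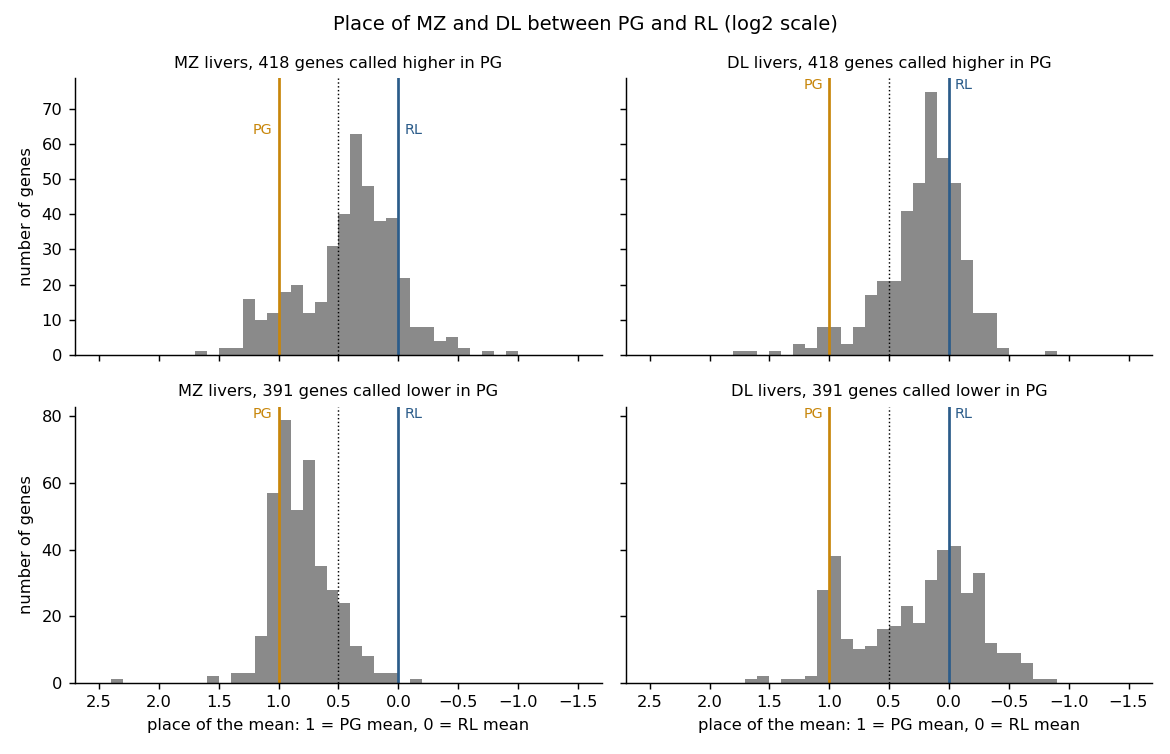
Place of the MZ mean (left) and the DL mean (right) on a scale where the PG mean is 1 and the RL mean is 0, as numbers of genes, for the 418 genes called higher in PG (top) and the 391 called lower in PG (bottom). MZ lies near PG for most genes lower in PG and nearer RL for most genes higher in PG, while DL lies near RL for most genes in both rows.

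Muscles of the same species were set beside the livers. In muscle 2252 of 16107 genes were called between 3 PG and 3 RL fish (14%), 1309 higher (8.13%) and 943 lower (5.85%) in PG. Of the 809 genes called in liver, 562 were tested in muscle and 174 were called there, which is 21.5% of the liver genes and 7.73% of the muscle genes. Of the 2252 genes called in muscle, 1689 were tested in liver, so both shares include genes not tested in the other tissue. For the 174 genes the direction was the same in 161 and opposite in 13. The fish were the same except for RL replicate 1, whose liver was not analysed here. Whether the difference between the species differed between tissues was tested directly as an interaction, which called 1007 of 18145 genes (5.55%). Of these, 259 were too low to be tested in muscle and 255 too low in liver, so that their interaction mostly restates the difference in the other tissue, and 493 were tested in both. Among the 809 genes called in liver 359 had a called interaction, 159 of them tested in muscle.

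The following genes were tested in both tissues. shmt1 was called lower in PG in either tissue, with 1.64, 2.63 and 2.55 TPM in PG muscles, against 8.85, 9.26 and 5.28 TPM in RL muscles (log2 fold change -1.41, adjusted p = 0.00577), and its difference in log2 fold change, liver minus muscle, was -2.46 (SE 0.50, adjusted p = 0.00311). trnau1ap had 8.51, 5.43 and 7.73 TPM in PG muscles, against 10.3, 10.9 and 8.07 TPM in RL muscles, and an interaction of 4.90 (SE 0.43, adjusted p = 5.68e-07). cebpa, which was low in all muscles, had 1.89, 2.08 and 4.37 TPM in PG muscles, against 1.22, 1.96 and 1.31 TPM in RL muscles, and an interaction of -5.06 (SE 0.53, adjusted p = 4.61e-06). odc1 had 55.9, 50.7 and 97.8 TPM in PG muscles, against 1.75, 7.46 and 5.57 TPM in RL muscles (log2 fold change 3.63, adjusted p = 1.33e-04), and its interaction was not called (adjusted p = 0.607). lcp1 had 7.76, 14.6 and 22.1 TPM in PG muscles, against 1.37, 2.53 and 1.62 TPM in RL muscles (log2 fold change 2.39, adjusted p = 8.73e-04), and mpeg1 3.9, 4.22 and 12.9 TPM in PG muscles, against 0.393, 0.558 and 0.414 TPM in RL muscles (log2 fold change 2.28, adjusted p = 0.00114). Both leukocyte markers were thus higher in PG in either tissue. Of others given for liver, 3 were not called in muscle by limma. They were cd74 (log2 fold change 1.75, adjusted p = 0.0111), spi1 (log2 fold change 1.34, adjusted p = 0.0351) and csf1r (log2 fold change 0.29, adjusted p = 0.580). postn was lower in PG in either tissue, with 3.28, 8.96 and 3.703 TPM in PG muscles, against 25.9, 44.2 and 24 TPM in RL muscles (log2 fold change -2.42, adjusted p = 6.49e-04). tnfaip3 was called higher in muscle too, by a log2 fold change of 1.56 (adjusted p = 0.00401), and by more in liver (interaction 3.36, adjusted p = 6.61e-04).

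**Figure D5:**
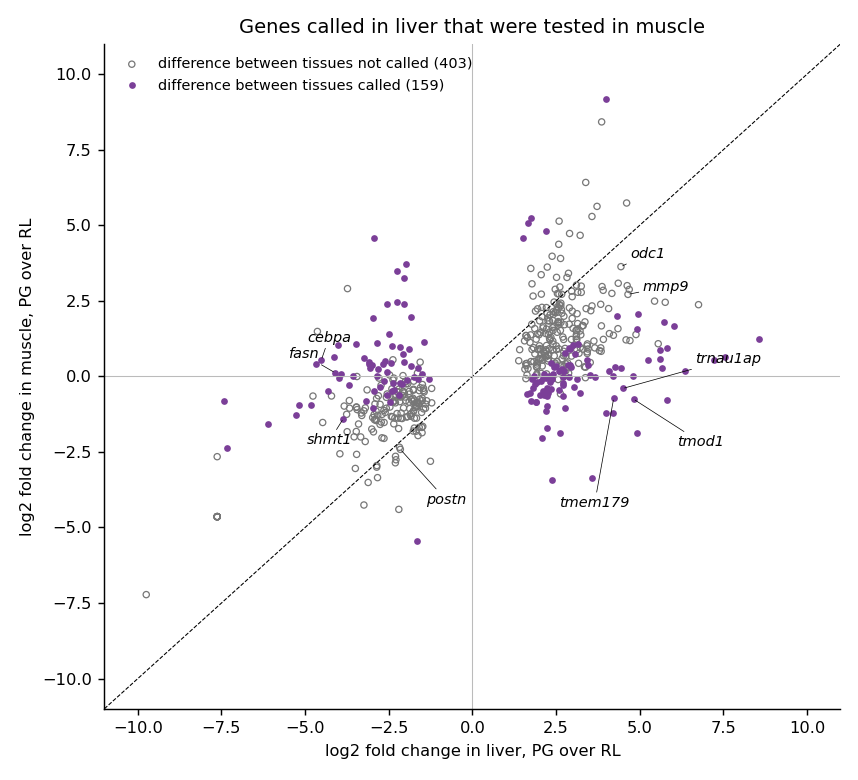
Log2 fold change of PG over RL in liver (horizontal axis) and muscle (vertical axis) for the 562 genes called in liver that were tested in muscle, 1 point per gene, with the 159 genes whose difference between tissues was called in purple and the other 403 as open circles. Points such as cebpa and tmem179 lie far from the dashed line of equal change, and odc1 and mmp9 lie closer to it.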

How the data were processed

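Reads of each liver and muscle were trimmed with Trim Galore and assigned to the Maylandia zebra UMD2a transcripts with kallisto by the authors, who deposited TPM values per gene and library. Transcripts that differ in sequence between a species and M. zebra can lose reads, and near-identical genes can share them: 505 genes had the same values as another gene in all livers, 17 of them called. TPM keeps no read counts, so the depth behind a value is unknown and no count model was run. A zero may be a failed estimate and is given as listed at 0. In the study's sample sheet a smaller share of reads was assigned in RL than in PG livers. Columns were matched to samples through the library numbers of the study's sample sheet, 0 per-sample columns were left unused, and the authors' means per species were not used. The lists of methylated regions were not analysed here, since no annotation of their build was at hand.

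The test was limma (version 3.58.1, R 4.3.3) with a trended variance. It was run on log2(TPM + 1) for genes that reached 1 TPM in 2 or more of the libraries compared, with species, or for the interaction species in each tissue, as the only term. All 11 livers, all 12 muscles or all 23 libraries entered a fit, which share 1 estimate of the spread. P-values were adjusted by Benjamini-Hochberg over all genes tested, and genes under 0.01 were called. Fold changes are PG over RL on the log2(TPM + 1) scale, which understates changes of low genes. In simulated livers, where 200 genes had a log2 change of 3, 62.5% were recovered with 0 false calls among 14518 genes. In muscle 88.5% were recovered with 3 false calls among 16272, and for the interaction 64% with 4 among 18319. The changed genes were drawn from those with a mean log2(TPM + 1) above 2, and the noise was normal and independent between libraries. These shares therefore do not carry over to lower genes or to shifts shared by many genes of a library. Livers and muscles of the same fish were paired by the sample sheet: their deviations from group means correlated between 0.110 and 0.168 in the 5 fish. PG and RL are different fish, and their replicate numbers do not pair them.

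Genes were named by a rule: called, with no overlap between PG and RL livers and at least 10 TPM in the higher species, the 12 largest changes each way with a symbol and 4 without, the 5 largest TPM differences each way of at least 100 TPM, called members and some of the most abundant members of the lists, and genes the study singles out. Other exceptions are stated where they occur. The markers cd3e, spi1 and csf1r were chosen after their values were seen, and apob and ptprc were also named outside the rule. The members of the 21 pathway and 11 marker lists, the rule and the tests were chosen with earlier results of these data known, and 5 further lists were written after the values were seen. Symbols are those of the tables. Listed symbols that they lack were not looked at, so a list can miss much of its pathway. For bile acids and steroids 12 genes were found for 33 symbols. Detoxification had 25 for 66, complement and coagulation 19 for 56, and cytosolic ribosomal proteins 67 for 80. Alternatives were pseudocounts of 0.1 and 0.5, no filter, a mean of at least 5 TPM, quantile normalization, median scaling, PG and RL alone, MZ replicate 1 or single PG or RL livers left out, a replicate block, an adjusted p under 0.05 and a difference of at least 50 TPM. Tables and plots were made with pandas 2.3.3, numpy 2.4.6 and matplotlib 3.10.9 under Python 3.11.15.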

Additional observations from a re-analysis of the deposited data

Results flagged for a closer look

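The interaction of species and tissue was called for 1007 genes by limma at an adjusted p under 0.01. Of these, 493 were tested in both tissues, 259 were too low for a test in muscle and 255 too low in liver, so that for the untested ones the value mostly restates the difference in 1 tissue. Of the genes described here, with tdo2, cth, cd3e and ptprc left out of the count, 41 were among the 1007. Of the 41, 20 were tested in both tissues. The other 21 were too low for a test in muscle: pygl, slc37a4, ppp1r3b, abcg5, abcg8, kynu, kmo, oplah, hnf4a, igfals, srcin1, agt, lg15h6orf58, apob, slc9a7, LOC112436627, LOC112430399, LOC101474941, LOC101485633, LOC106675256 and LOC101465189. The values that follow are the log2 fold change in liver minus that in muscle.

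Genes with a more negative difference in liver were pygl (-5.32), slc37a4 (-2.04) and ppp1r3b (-3.15) of glucose and glycogen. Of lipid genes they were fasn (-4.24), acaca (-3.10), fads6 (-3.59), abcg5 (-4.03), abcg8 (-3.14), amacr (-1.61), apob (-1.57) and phyhd1 (-2.47). Of amino acid genes they were kynu (-3.87), kmo (-3.32), shmt1 (-2.46) and oplah (-3.30). Of regulators and others they were cebpa (-5.06), hnf4a (-1.87), fosb (-4.94), igfals (-2.07), srcin1 (-3.52) and slc9a7 (-3.97). Without a symbol they were LOC101485633 (-9.98), LOC106675256 (-8.16) and LOC111501235 (-2.82). Of all these genes hnf4a, apob and LOC101465189 were not called in liver alone.

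Genes with a more positive difference in liver were serpinc1 (2.12), agt (4.27), tnfaip3 (3.36), irak4 (2.12), prg4 (2.86), sult6b1 (2.77), abcb1 (4.16), lg15h6orf58 (5.53), tmod1 (5.57), trnau1ap (4.90), tmem179 (4.95) and pisd (4.19). Without a symbol they were LOC112436627 (8.16), LOC105940518 (7.31), LOC112430399 (7.34), LOC101474941 (8.15) and LOC101465189 (3.52). fosb had 14.5, 20.1 and 114 TPM in PG muscles, against 17.3, 1.204 and 5.42 TPM in RL muscles, with a log2 fold change in muscle of 2.39 (adjusted p = 0.0427), opposite in sign to that in liver.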

How the results depend on the processing

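The liver comparison called 809 genes. It called 341 with PG and RL alone, 452 with no filter on low values, 1556 after median scaling, 1565 after quantile normalization, 2638 at an adjusted p under 0.05 and 201 with a difference of at least 50 TPM. Leaving out single PG or RL livers gave between 78 and 648 calls. The share of calls that were higher in PG was 51.7%, and 65.1% with a mean of at least 5 TPM, 44.5% after quantile normalization and 76.2% without RL replicate 3. Numbers do not pair PG and RL livers (deviations of same-numbered livers correlated at 0.0497 and 0.0778), and the replicate block gave 618 calls. The interaction called 1007 genes, 566 with a pseudocount of 0.1, 1654 after quantile normalization within tissue, 2556 at an adjusted p under 0.05 and between 427 and 824 with a fish left out. With the fish as a replicate block it called 1365, adding acox3, LOC101473393, tnip1, ptges3 and gnl3 among the genes of the text and losing none of them. The muscle comparison called 2252 genes, 4713 at an adjusted p under 0.05 and between 1238 and 2061 with a fish left out. Of 1568 values for the 100 genes of the text under these alternatives, 0 changed direction, 378 were calls no longer past the threshold and 35 passed it anew. The genes of the text counted in this section leave out tdo2, cth, cd3e and ptprc. PG and RL livers did not overlap in the 100 genes. Liver fits that change the pseudocount or the filter, or leave out a liver, therefore could not change a direction. In liver 61 genes, 8 of them with a symbol, were tested and called under every alternative that refits the model: pygl, cebpa, kynu, shmt1, slc9a7, trnau1ap, tnfaip3 and prg4. The genes without a symbol among them include the set of 11 that share the values of LOC112431960 and cannot be told apart. The count of called genes with the MZ mean on the PG side was 480, and 513 without MZ replicate 1. Which genes lie in methylated regions was not run. Depth is unknown, so the precision of low TPM values cannot be given.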

Other observations

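Beyond the lists of the report, 5 lists were written after the values had been seen, from general knowledge of each pathway and including members that did not move. Their counts describe these livers and carry no test, and the lists are not independent of the data. In PG livers 2.92% of all genes tested were called higher and 2.73% lower.

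Co-chaperones work with Hsp90, which folds kinases and steroid receptors. Of 24 genes tested 11 were called higher (0 without RL replicate 2 and 6 without RL replicate 3) and 0 lower, and 22 were above 0 (median 2.02). ptges3, which is p23 of the Hsp90 complex, had 166, 238 and 223 TPM in PG livers, against 13.5 and 26.1 TPM in RL livers (log2 fold change 3.39, SE 0.46, adjusted p = 9.07e-04). stip1, which passes clients from Hsp70 to Hsp90, had 70.8, 127 and 102 TPM in PG livers, against 9.85 and 23.4 TPM in RL livers (log2 fold change 2.59, SE 0.48, adjusted p = 0.00506). All PG livers were above both RL livers in these genes, as in all genes called higher. chordc1 had 30.4, 29.1 and 34.9 TPM in PG livers, against 3.59 and 4.65 TPM in RL livers (log2 fold change 2.67, SE 0.35, adjusted p = 7.74e-04). fkbp8 had 82.2, 71.4 and 61.6 TPM in PG livers, against 11.7 and 11.1 TPM in RL livers (log2 fold change 2.54, SE 0.36, adjusted p = 0.00111). These 4 genes were also called higher in PG muscles, with log2 fold changes of 6.42 for ptges3, 5.14 for stip1, 2.72 for chordc1 and 2.74 for fkbp8.

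Ribosome assembly genes process ribosomal RNA in the nucleolus. Of 78 tested 10 were called higher and 0 lower, 55 were higher at an adjusted p under 0.05, and 77 were above 0 (median 1.62). gnl3 had 26.9, 28.7 and 17.99 TPM in PG livers, against 3.08 and 3.41 TPM in RL livers (log2 fold change 2.56, SE 0.55, adjusted p = 0.00987). bop1 had 17.3, 16.5 and 8.297 TPM in PG livers, against 1.41 and 2.71 TPM in RL livers (log2 fold change 2.26, SE 0.42, adjusted p = 0.00508). wdr43 had 52.5, 66.8 and 39.8 TPM in PG livers, against 6.36 and 15.3 TPM in RL livers (log2 fold change 2.27, SE 0.47, adjusted p = 0.00879). After quantile normalization the median was 1.37 and 27 were called higher, while 0 were called without RL replicate 2 and 0 without RL replicate 3.

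NF-kB signalling, the pathway that tnfaip3 damps, had 7 of 25 genes called higher (1 without RL replicate 2 and 5 without RL replicate 3) and 0 lower, with 21 above 0 (median 1.11). The 7 include tnfaip3 itself, whose call is described above. myd88, an adaptor of the pathway, had 39.7, 30.8 and 18.8 TPM in PG livers, against 3.94 and 6.31 TPM in RL livers (log2 fold change 2.29, SE 0.44, adjusted p = 0.006298). irak4, a kinase that binds it, had 21.7, 14.3 and 19.6 TPM in PG livers, against 2.01 and 3.199 TPM in RL livers (log2 fold change 2.44, SE 0.37, adjusted p = 0.00172). The groups did not overlap in either, as in all called genes. map3k8, another kinase, had 91.9, 38.8 and 67.4 TPM in PG livers, against 3.05 and 11.9 TPM in RL livers (log2 fold change 3.13, SE 0.57, adjusted p = 0.004496). relb, a subunit of the factor itself, had 33.98, 32.6 and 65.1 TPM in PG livers, against 2.23 and 6.58 TPM in RL livers (log2 fold change 3.11, SE 0.49, adjusted p = 0.00212). tnip1, a partner of tnfaip3, had 191, 130.3 and 151 TPM in PG livers, against 11.2 and 25.5 TPM in RL livers (log2 fold change 3.12, SE 0.54, adjusted p = 0.00362). The last 3 genes too were above both RL livers in every PG liver. Of 15 genes for gp130 and JAK-STAT signalling 2 were called higher (0 without RL replicate 2 and 2 without RL replicate 3) and 0 lower. il6st, the gp130 receptor chain through which interleukin 6 induces fibrinogen in mammals, had 109.7, 116 and 108 TPM in PG livers, against 14.4 and 28.5 TPM in RL livers (log2 fold change 2.40, SE 0.41, adjusted p = 0.00346), and cish, a feedback inhibitor, had 137, 124 and 143 TPM in PG livers, against 3.33 and 13.5 TPM in RL livers (log2 fold change 4.09, SE 0.67, adjusted p = 0.00283).

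Of 47 peroxisome genes tested 10 were called lower (0 without RL replicate 2 and 1 without RL replicate 3) and 2 higher (acox3 and gstk1), and 38 were below 0 (median -0.55). pex5, the receptor that brings enzymes into the organelle, had 2.12, 1.82 and 2.69 TPM in PG livers, against 9.77 and 9.52 TPM in RL livers (log2 fold change -1.74, SE 0.34, adjusted p = 0.00619). pex13, of its docking site, had 0.233, 0.4299 and 0.318 TPM in PG livers, against 2.76 and 2.44 TPM in RL livers (log2 fold change -1.44, SE 0.28, adjusted p = 0.00635). pex14, of the same site, had 0.893, 0.477 and 0.614 TPM in PG livers, against 6.12 and 3.51 TPM in RL livers (log2 fold change -1.78, SE 0.33, adjusted p = 0.00489). These 3 genes were low in both species and lower in every PG liver. pex13 and pex14 were below 1 TPM in every PG liver and passed the filter through RL livers alone. A log2 fold change below 0 was therefore fixed for them in advance, and they were not tested without an RL liver. hao2, a hydroxyacid oxidase, had 3.73, 6.66 and 4.26 TPM in PG livers, against 32.2 and 25.2 TPM in RL livers (log2 fold change -2.36, SE 0.44, adjusted p = 0.00523). decr2, which reduces unsaturated acyl chains, had 2.98, 6.87 and 6.2 TPM in PG livers, against 32.6 and 28.6 TPM in RL livers (log2 fold change -2.37, SE 0.40, adjusted p = 0.003098). phyhd1, a dioxygenase-like gene, had 2.07, 1.53 and 2.42 TPM in PG livers, against 28.4 and 17.1 TPM in RL livers (log2 fold change -2.95, SE 0.52, adjusted p = 0.00399). slc9a7, an ion exchanger of the Golgi that belongs to none of these lists, had 1.39, 0.927 and 2.12 TPM in PG livers, against 24.9 and 26.1 TPM in RL livers (log2 fold change -3.45, SE 0.37, adjusted p = 1.80e-04) and was the 1 gene of these 21 calls kept in each fit that left out a single liver. The others were kept in 0 to 12 of 20 cases for each liver left out, with adjusted p up to 0.131. All genes named here were chosen after their values were seen.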
